A study of Mus musculus with 13 samples.

Results

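Cardiomyocytes of the mouse heart at postnatal day 3 (P3) were compared with those at the embryonic stage E16.5. A barcode, the tag that marks the transcripts of a single droplet, was taken as a cardiomyocyte when it held at least 2000 unique molecular identifiers (UMIs, the counted transcripts), at least 500 genes, at least 1% of its UMIs from mitochondrially encoded (mt-) genes, and at least 1500 Tnnt2 UMIs per 1000000 UMIs (CPM), which encodes cardiac troponin T. No upper mitochondrial limit was set. The rule kept 14034 of the 20353 barcodes at these stages that passed the UMI and gene floors, which were themselves part of 76191 such barcodes in the whole series. At E16.5 it kept 3509 barcodes in replicate 1 and 3387 in replicate 2. At P3 it kept 4201 in well 1 and 2937 in well 2. Few barcodes lay near the Tnnt2 limit, with 17 to 52 members per profile between 1500 and 2000 CPM and 21 to 53 left out between 1000 and 1500.

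The series profiled single cells of wild-type C57Bl/6J mice at 6 stages with droplet 3′ sequencing, and E16.5 and P3 are dissected whole hearts, dissociated with enzyme and given no treatment. Neither the labels nor the study tie a library to an animal, a litter or a sex, so replicates measure the spread between libraries only. The E16.5 replicate 1 matrix joins 2 records. P3 is a single matrix whose barcodes carry the suffixes 1 and 2, here called wells, and no label ties a well to a record, so P3 counts as 1 sample and its wells are shown apart. The P3 matrix was also filtered for cells and made with another release of the counting software than the E16.5 matrices, so stage and processing cannot be told apart.

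Birth moves the heart from a low-oxygen placental supply, in which its muscle cells rely largely on glucose and lactate, to air breathing and fat-rich milk. Over the following days mouse cardiomyocytes are known to turn to fatty acid oxidation, to exchange fetal for adult isoforms of contractile proteins, to enlarge their calcium stores and to leave the cell cycle. Myosin heavy chains (Myh6 for the fast alpha form, Myh7 for the slow beta form) and troponin I (Tnni1 slow skeletal, Tnni3 cardiac) are the classic isoform pairs of this change.

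The 4 profiles held 69493352, 49237202, 80505502 and 31621697 UMIs in cardiomyocyte barcodes, in the order E16.5 replicate 1, E16.5 replicate 2, P3 well 1 and P3 well 2, and every set of 4 values below follows that order. Median UMIs per barcode were 19883, 14470, 19015 and 10398. UMIs were summed per profile and scaled to CPM. Differences are P3 minus E16.5 on the log2(CPM + 0.5) scale. A gene was called higher at P3 when it was at least 2-fold above in each of the 4 pairs of a well and a library, and lower when at least 2-fold below in each, among genes with a mean of at least 5 CPM. With P3 as 1 sample the comparison is a description with no test, and counts from model fits are given only as alternatives in the closing section.

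The E16.5 libraries lay close to each other, with an SD of 0.13 for the gene-wise log2 difference between them, and 3 of 8624 tested genes (0.0348%) were 2-fold apart. The P3 wells stood further apart, with an SD of 0.56, a median of 0.23 towards well 2 and 862 genes (10.0%) at least 2-fold apart. The study compared batches by eye within each stage and reported significant differences at P3 alone. Whether its batches are these wells is not stated. The cardiomyocyte label was checked against its markers. Actn2 (616, 632, 942 and 957 CPM), Tnnc1 (4127, 4130, 4360 and 4422 CPM) and Actc1 (10937, 10838, 9740 and 8786 CPM) were abundant in all 4 profiles. E16.5 barcodes of at most 100 UMIs held 311 and 298 CPM of Actn2, 3448 and 3695 CPM of Tnnc1 and 7277 and 7990 CPM of Actc1, so these levels alone do not set the members apart from such barcodes. Between 10 and 26 barcode sequences were shared by any 2 profiles, at most 0.768% of either.

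Among the 8624 tested genes, 198 were called higher at P3 (2.30%) and 172 lower (1.99%). These counts depend on both wells being required, with 477 higher and 272 lower without well 1 and 265 and 780 without well 2. With no fold required, both wells lay above both libraries for 2735 genes (31.7%) and below both for 2790 (32.4%). Most tested genes thus had both wells on 1 side, and the side alone says little about a gene. List counts below are to be read against these shares, and a few calls in a list are not taken as a change of that list. With the mt- genes left out of the totals, 307 genes of 9059 were called higher (3.39%) and 111 lower (1.23%), which moved the higher share of the calls from 53.5% to 73.4%. The scales differ because mt- UMIs take a larger part of the total at P3. The median of all tested genes was -0.01 on the all-UMI scale and 0.15 without mt- genes, a shift of 0.16, so the all-UMI values given below are close to changes relative to the median gene. Of the 198 genes called higher, 196 were also called without mt- genes, and of the 172 called lower, 106 were.

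**Figure D1:**
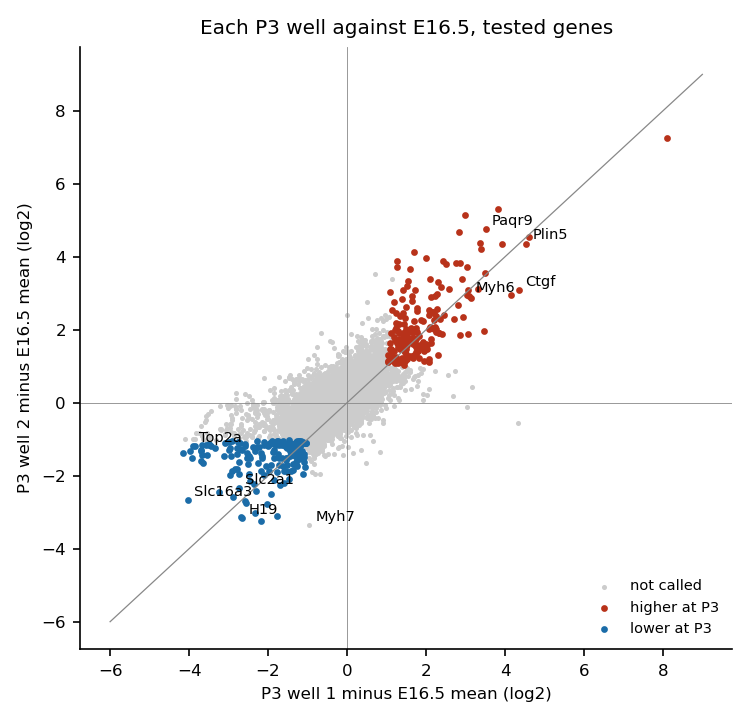
Difference of each tested gene from the E16.5 mean in P3 well 1 (horizontal axis) and in P3 well 2 (vertical axis), both in log2(CPM + 0.5), where each point is a gene, red is called higher, blue is called lower and the diagonal marks equal change in both wells. Plin5 and Paqr9 stand high in both wells, Myh7 lies lower in well 2 than in well 1, and Top2a lies lower in well 1 than in well 2.

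Genes of fatty acid uptake and oxidation were higher as a list. Of 32 listed genes 30 were tested, 17 were called higher and none lower, and both wells lay above both libraries for 29. The median difference was 1.52, against -0.01 over all tested genes. Leaving out mt- genes gave 20 called higher and a median of 1.69.

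Plin5, which coats lipid droplets beside mitochondria, stood at 0.734, 0.751, 28.5 and 25.1 CPM. Its fold over the 4 pairs was 20.5 to 23.5 on the CPM + 0.5 scale, which understates the change of a gene this low at E16.5. Pdk4, the kinase that shuts pyruvate out of the Krebs cycle, stood at 8.23, 8.23, 156 and 67.1 CPM. For Pdk4 the wells differed, with 7.74-fold as the smallest pair and 17.9-fold as the largest on the same scale. Both genes were nearly level between the E16.5 libraries, and every P3 value lay far above them.

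The carriers that bring fatty acids into the cell were higher too. Cd36, the fatty acid translocase, stood at 81.9, 80.5, 394 and 486 CPM, and Slc27a1, a fatty acid transport protein, at 6.92, 7.03, 52.4 and 47.7 CPM. Acsl1, which links fatty acids to coenzyme A, stood at 80.8, 81.4, 378 and 391 CPM. These 3 genes differed by 2.24 to 2.76 on the log2 scale, with the wells close together beside the size of the change.

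Inside the mitochondrion, Decr1, which acts on unsaturated fatty acids, stood at 38.7, 36.2, 163 and 158 CPM. Acot2, a mitochondrial thioesterase, stood at 32.6, 39.3, 183 and 137 CPM. Mlycd, which degrades malonyl-CoA and so lifts the brake on fatty acid entry, stood at 15.3, 17.6, 89.2 and 62.4 CPM. The other 9 genes called higher were Lpl, Fabp3, Cpt1a, Cpt2, Slc25a20, Acadvl, Hadha, Hadhb and Etfdh, with differences from 1.44 to 2.05.

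Plin5 was unevenly spread between barcodes of different chamber type at P3. Barcodes with more UMIs of Myl2, the ventricular light chain, than of Myl7, the atrial light chain, held 32.7 and 30.5 CPM of Plin5 in wells 1 and 2. Those with at least as much Myl7 held 4.70 and 5.18 CPM. Cd36 differed less between these classes, at 419 and 543 CPM against 253 and 276 CPM. In the E16.5 libraries Plin5 stood at 0.72 and 0.777 CPM with more Myl2 and at 0.894 and 0.477 CPM otherwise. Cd36 stood at 80.8 and 79.2 CPM against 94.4 and 94.7 CPM. The P3 level of both genes was thus higher in both classes.

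**Figure D2:**
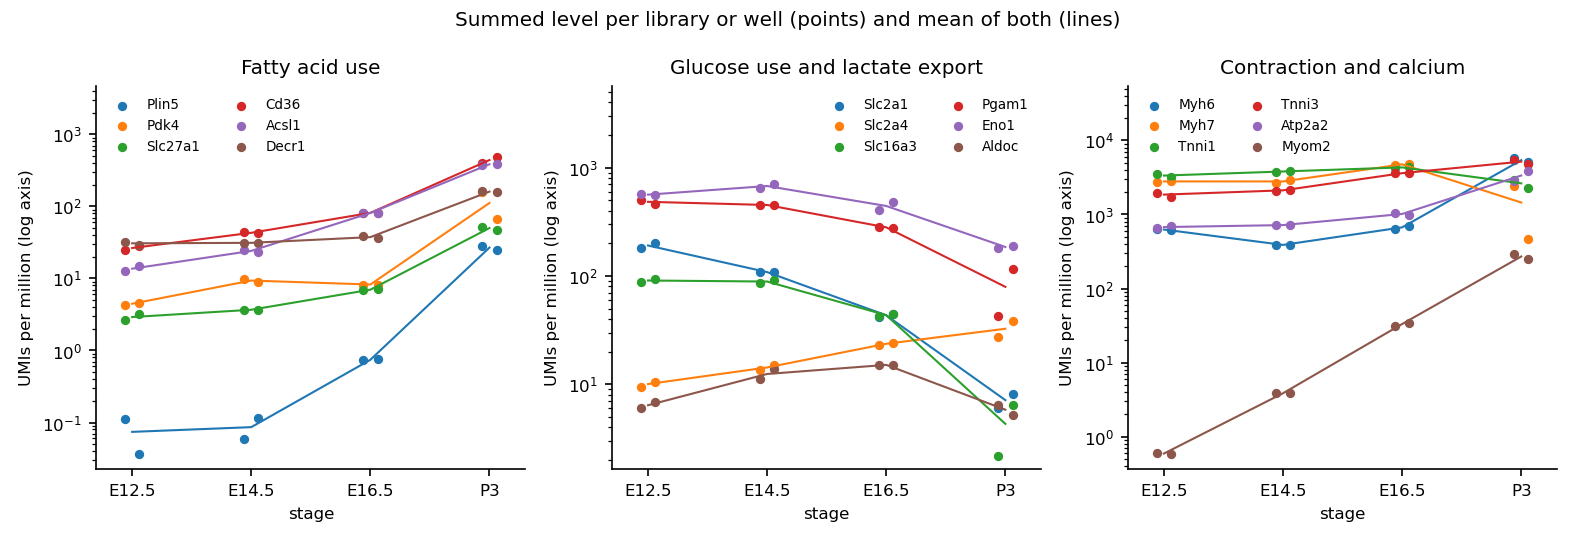
Level of named genes by stage in CPM on a log axis, where points are libraries at E12.5, E14.5 and E16.5 or wells at P3 and lines join the mean of both. Plin5 and Pdk4 step up between E16.5 and P3, Slc16a3 and Slc2a1 drop, and Myh6 passes Myh7.

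Genes of the Krebs cycle and ketone use differed by less, with a median of 0.37 over 20 tested genes, of which 15 lay above both libraries in both wells.

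Genes of glucose use moved the other way in part. Of 24 tested genes of glycolysis and lactate, 5 were called lower and none higher, and 17 lay below both libraries in both wells against 6 above. The median was -0.57, and 3 were called lower without mt- genes, when Eno1 and Aldoc lost their call. Slc16a3, a monocarboxylate transporter that exports lactate, stood at 42.6, 44.3, 2.20 and 6.42 CPM, 0.0603 to 0.160 of its E16.5 level. Slc2a1, the glucose transporter GLUT1 of fetal heart, stood at 41.7, 44.9, 6.09 and 8.19 CPM. Slc2a4, the insulin-responsive transporter GLUT4, was not called and stood at 23.0, 24.3, 27.1 and 38.0 CPM.

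Of the UMIs of these glucose transporters together, Slc2a4 made up 35.5% and 35.1% at E16.5 and 81.7% and 82.3% at P3. The lead of Slc2a1 over Slc2a4 at E16.5 was thus turned in both wells. Slc2a1 had already declined before birth, from 180 and 202 CPM at E12.5 to 108 and 109 CPM at E14.5.

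Further along the pathway, Pgam1, a phosphoglycerate mutase, stood at 286, 276, 42.7 and 116 CPM. Eno1, the ubiquitous enolase, stood at 405, 480, 182 and 188 CPM, and the aldolase isoform Aldoc at 15.2, 15, 6.46 and 5.19 CPM. Pgam1 differed between wells by more than the others, yet both wells lay below both libraries.

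The mitochondrial share of UMIs in a barcode was larger at P3. Its median was 10.53% and 10.94% in the E16.5 libraries and 22.15% and 21.83% in the P3 wells, a difference of the means of 11.3 percentage points. The quartiles did not meet, with 8.54 to 13.7% spanning the middle of the E16.5 barcodes and 17.2 to 25.8% that of the P3 barcodes. Median UMIs outside the mt- genes were 17639, 12830, 14781 and 8094 per barcode. The part of cell quality in the mt- share was not tested.

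The 13 mt- genes did not move as a block. Both wells lay above both libraries for 9, and 2 were called higher, namely mt-Co1, the catalytic subunit of cytochrome oxidase (18251, 18980, 44061 and 59655 CPM), and mt-Nd4l of complex I (383, 349, 1154 and 1263 CPM). mt-Nd3, also of complex I, lay below both libraries in both wells, at 1891, 2042, 1740 and 1112 CPM. mt-Co2 overlapped between the stages, at 16798, 16167, 29501 and 15910 CPM. For this gene the wells differed by more than the stages, whose mean difference was 0.39 on the log2 scale.

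Nuclear genes of the respiratory chain did not shift together. None of 84 tested genes was called, the median difference was 0.01, and 28 lay above and 27 below both libraries in both wells. Within them, heart-type isoforms of cytochrome oxidase gained on their ubiquitous partners. Cox6a2, the striated muscle form, stood at 2739, 2667, 4302 and 3549 CPM while Cox6a1 stood at 1824, 1815, 1044 and 741 CPM. Cox8b stood at 918, 942, 1248 and 1964 CPM and its partner Cox8a at 4310, 4109, 2449 and 1864 CPM.

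As a share of the pair, Cox6a2 went from 60.0% and 59.5% of UMIs to 80.5% and 82.7%, and Cox8b from 17.6% and 18.6% to 33.8% and 51.3%. Cox7a1 did not follow this order. It made up 24.8% and 26.6% of the UMIs of Cox7a1 and Cox7a2 at E16.5 and 22.1% and 29.2% at P3, so the stages overlapped. These shares compare 3′ UMI counts, which are not scaled to transcript length.

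**Figure D3:**
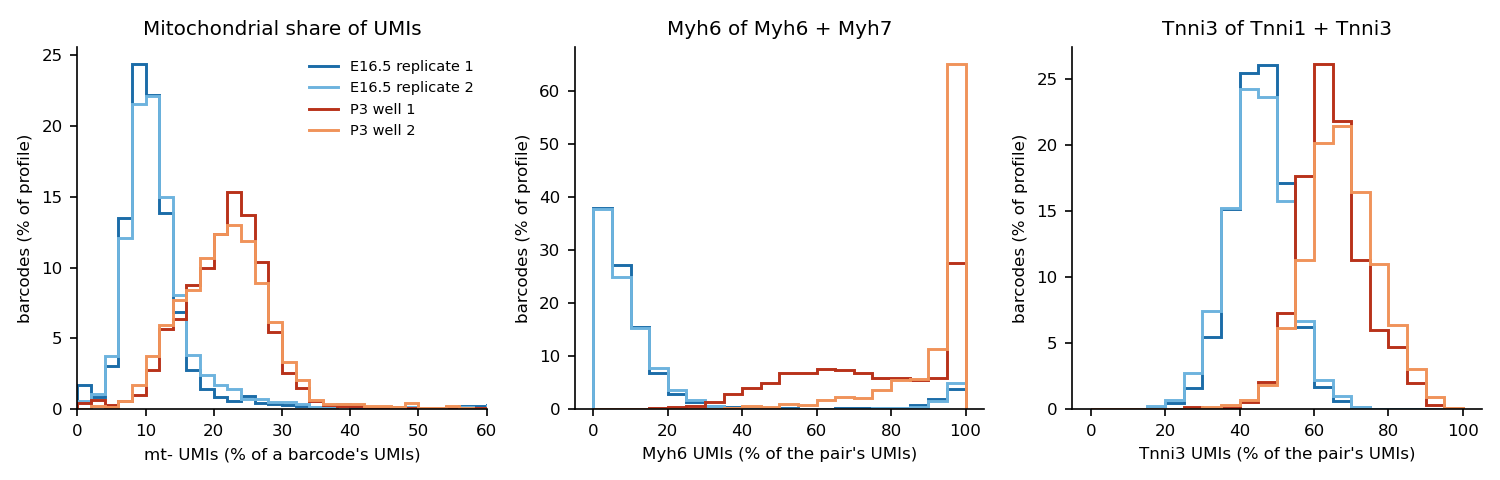
Distribution over cardiomyocyte barcodes of the mt- share of UMIs (left, axis ended at 60%), of the Myh6 share of Myh6 and Myh7 UMIs (middle) and of the Tnni3 share of Tnni1 and Tnni3 UMIs (right), as percent of the barcodes of each profile, where the middle and right panels use barcodes with at least 20 UMIs of the pair. The P3 wells lie to the right of the E16.5 libraries in each panel, and most barcodes of well 2 are at the right edge of the Myh6 panel.

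Myh6 differed most among the thick filament genes. It stood at 642, 698, 5704 and 5111 CPM, 7.32 to 8.87-fold higher at P3. Myh7 stood at 4718, 4784, 2433 and 467 CPM and was not called, because well 1 kept up to 0.516 of the E16.5 level while well 2 was far lower. The Myh6 level was thus close between wells, and the Myh7 level was not. In barcodes with more Myl2 than Myl7 UMIs Myh6 stood at 452, 475, 5432 and 4994 CPM. With at least as much Myl7 it stood at 2823, 3094, 7236 and 5541 CPM, where not every pair was 2-fold apart. Myh7 stood at 381, 339, 119 and 52.6 CPM in that class, below Myh6 at both stages. The shares below cover both classes together.

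Myh6 made up 12% and 12.7% of the UMIs of the pair at E16.5, 70.1% in well 1 and 91.6% in well 2. Single barcodes showed the same order. Among barcodes with at least 20 UMIs of the pair, the median Myh6 share was 7.01% and 7.14% at E16.5, 75.2% in well 1 and 97.8% in well 2. Myh6 was the larger part in 7.51% and 7.76% of these barcodes at E16.5 and in 85.3% and 98.7% at P3. At E16.5, barcodes of at most 100 UMIs held 296 and 273 CPM of Myh6 and 2403 and 1945 CPM of Myh7. Such barcodes could not be measured at P3, since that matrix holds called cells only, and the part of free RNA in these shares was not tested.

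Troponin I moved in the same sense by less. Tnni1 stood at 4297, 4344, 2962 and 2301 CPM and Tnni3 at 3637, 3581, 5472 and 4864 CPM, and neither was called. The median share of Tnni3 over barcodes was 45.3% and 44.9% at E16.5 and 64.3% and 67.1% at P3. The quartiles of the Tnni3 share at P3 were 59.3% and 69.8% in well 1 and 61.1% and 73.6% in well 2. The actins gave a different picture. Actc1, cardiac alpha-actin, was abundant throughout, and Acta1, skeletal alpha-actin, stood at 87.2, 84.4, 60.5 and 57.8 CPM, under 1% of the UMIs of the pair in every profile.

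Of 10 thick filament genes, Myh6 and Mybphl were called higher. Mybphl was under 5 CPM, and so not tested, in the barcodes with more Myl2 than Myl7. Of 15 tested thin filament genes none was called, and 9 lay below both libraries in both wells. At the Z-disc and M-band, Myom2 and Xirp2 were called higher of 16 tested. Myom2, the M-band protein of fast and adult muscle, stood at 31.7, 34.8, 295 and 247 CPM, after 0.607 and 0.580 CPM at E12.5 and 3.86 and 3.88 CPM at E14.5. Xirp2, an actin-binding protein of the intercalated disc, stood at 2.1, 2.60, 16.6 and 24.2 CPM. Among 22 junction and costamere genes, Itga7, a laminin-binding integrin, stood at 1.41, 1.79, 9.80 and 20.1 CPM, and Lama2, the laminin chain of mature muscle, at 15.6, 15, 36.2 and 33.1 CPM, and these 2 were called higher.

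Genes of calcium release and uptake were higher in number. Of 29 tested genes, 6 were called higher and 1 lower, 19 lay above both libraries in both wells and the median was 0.55. Atp2a2, the SERCA2 pump that refills the sarcoplasmic reticulum, stood at 1035, 997, 2809 and 3907 CPM. Ryr2, the calcium release channel, stood at 204, 204, 580 and 599 CPM, and Hrc, a calcium-binding protein of the same store, at 45.7, 46.7, 127 and 144 CPM. The P3 wells lay together above the libraries for all 3.

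Dhrs7c, a reductase of the sarcoplasmic reticulum, stood at 20.1, 20.7, 57.2 and 54.9 CPM. Casq1, the calsequestrin of fast skeletal muscle, was the gene called lower, at 39.1, 42.4, 18.3 and 15.9 CPM, but not without mt- genes. Sln, also called higher, encodes an inhibitor of the pump that marks atrial cells and is described with the atrial genes.

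Among ion channels 14 of 24 listed genes were tested, 5 were called higher and none lower, and 4 were called higher in ventricular barcodes (those with more Myl2 than Myl7), where Kcnj3 was not. Kcnip2, a subunit of the transient outward current, stood at 14.7, 16.3, 43.8 and 41.5 CPM, after values under 2 CPM at E12.5 and E14.5. Abcc9, the sulphonylurea receptor of ATP-sensitive channels, stood at 37.2, 36.2, 84.8 and 129 CPM. Kcnk3, a background potassium channel, stood at 33.4, 40.4, 105 and 151 CPM. Hcn4, the pacemaker channel, was under 5 CPM in every profile, at 0.633, 0.975, 1.01 and 1.17 CPM, and was not compared.

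Of 15 tested genes of energy transfer, Mb, the oxygen-binding protein myoglobin, was called higher at 1204, 1200, 3450 and 4299 CPM. Ckmt2, the sarcomeric mitochondrial creatine kinase, was called higher at 29.9, 30.9, 148 and 124 CPM, while Gamt, which makes creatine, was called lower at 36.6, 38.2, 8.40 and 9.20 CPM. Of 16 tested metabolic regulators, Klf9, a glucocorticoid-induced transcription factor, stood at 6.43, 7.62, 82.8 and 28.9 CPM. Epas1, the hypoxia-inducible factor HIF-2 alpha, stood at 3.05, 4.33, 13.5 and 16.6 CPM, and at 11.0 and 9.50 CPM in E16.5 barcodes of at most 100 UMIs. These 2 were the regulators called higher, and none was called lower.

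**Figure D4:**
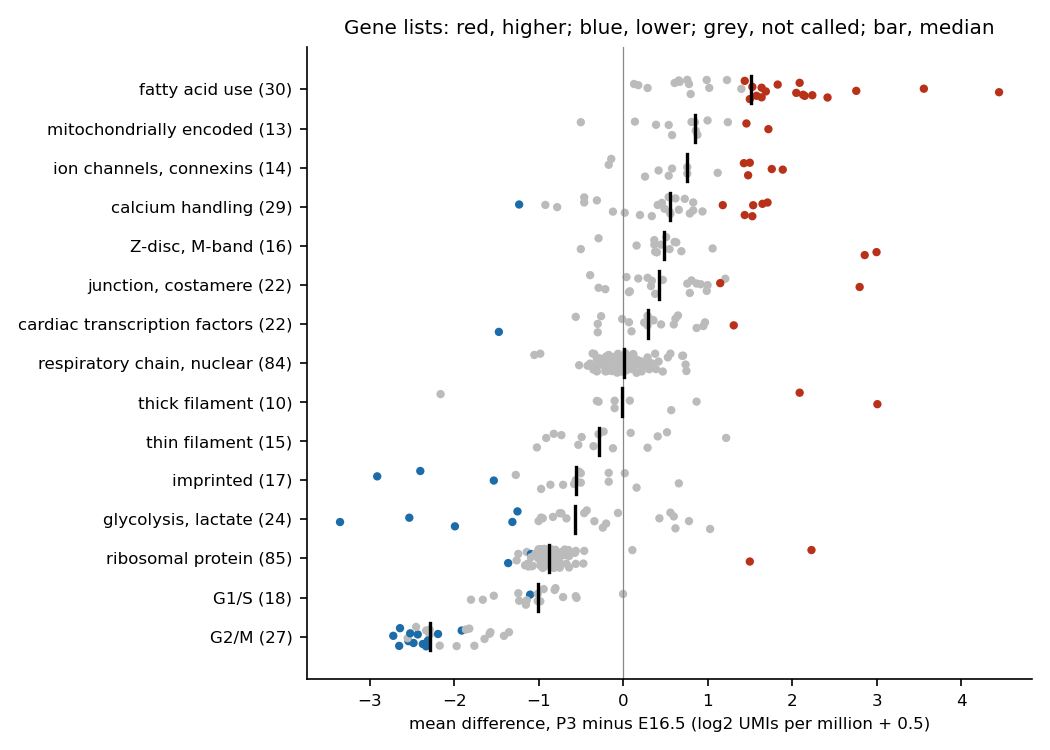
Mean P3 minus E16.5 difference in log2(CPM + 0.5) of each tested member of 15 gene lists, where points are genes, red is called higher, blue called lower and grey not called, the bar is the list's median and the number of tested genes stands in parentheses. Fatty acid use has the highest median (1.52) and G2/M the lowest (-2.29).

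Genes of mitosis were lower at P3, by very different amounts in each well. Of 27 tested genes of the G2 and M phases, 12 were called lower and none higher, 26 lay below both libraries in both wells, and the median was -2.29. Well 1 alone was at least 2-fold below both libraries for all 27 genes and well 2 alone for 12. The summed level of the list was 1674, 1613, 158 and 801 CPM, after 1775 to 2097 CPM at E12.5 and E14.5. Without mt- genes 5 were called lower, and Top2a, Ect2, Nusap1 and Hmmr were among those that lost their call. These are sums over barcodes, and whether fewer barcodes held these transcripts or each held less was not tested.

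Top2a, the topoisomerase of chromosome condensation, stood at 148, 142, 9.18 and 63.8 CPM. Ube2c, which tags mitotic cyclins for destruction, stood at 219, 208, 16.6 and 67.4 CPM. Ect2, which starts the contraction that splits a cell, stood at 24.7, 21.2, 1.32 and 9.93 CPM. Each was lowest in well 1, though both wells lay below both libraries.

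The kinetochore motor Cenpe stood at 35.3, 38.9, 1.96 and 12.6 CPM and Cenpf, another kinetochore protein, at 151, 162, 11.6 and 51.6 CPM. Birc5, the survivin subunit of the chromosomal passenger complex, stood at 126, 119, 10.1 and 44.7 CPM. Nusap1 and Hmmr, which act on the mitotic spindle, stood at 50.5, 47.9, 2.97 and 21.2 CPM and at 52.3, 50.6, 3.88 and 22.6 CPM. Each of these genes was lowest in well 1 and next lowest in well 2. In E16.5 barcodes of at most 100 UMIs Birc5 stood at 129 and 143 CPM, above its cardiomyocyte level. Cenpe (21.8 and 18.1 CPM), Cenpf (73.4 and 86.1 CPM), Nusap1 (37.5 and 33.6 CPM) and Hmmr (28.7 and 32.0 CPM) stood below theirs. The part of free RNA in the G2/M differences was not tested.

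The promoters of the G2/M list were read for the CHR element (TTTGAA) and the CCAAT box (CCAAT), motifs known from late cell cycle genes. RefSeq start sites gave windows of 250 bases before to 50 after the start (build GRCm38.p6) for 23 of the 27 genes. TTTGAA was found on either strand in 18 of the 23 (78.3%), against 20.2% of 27025 genes with a window and 1 of 14 G1/S genes. CCAAT was found in 20 of 23 (87.0%), against 41.1% of all and 9 of 14 G1/S genes (64.3%). Of the 11 genes called lower that have a window, 8 hold TTTGAA, and Cenpe, Birc5 and Nusap1 do not in this window. These shares describe the G2/M list, called members or not, and do not bear on the P3 difference. A match is a string of letters and not shown to be bound.

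The 150 bases before the start of 3 genes called lower that hold TTTGAA there are shown 5′ to 3′ on the gene's own strand, with TTTGAA and CCAAT, or their reverse complements TTCAAA and ATTGG, in capitals. Of the 11 called genes, 7 (Ccnb2, Cenpe, Cenpf, Birc5, Kif23, Hmmr and Nusap1) have no TTTGAA in this shorter stretch. The 3 shown lie at chr11:99024190-99024339 (minus strand) for Top2a, chr2:164769779-164769928 (plus strand) for Ube2c and chr3:27153879-27154028 (minus strand) for Ect2.
Top2a: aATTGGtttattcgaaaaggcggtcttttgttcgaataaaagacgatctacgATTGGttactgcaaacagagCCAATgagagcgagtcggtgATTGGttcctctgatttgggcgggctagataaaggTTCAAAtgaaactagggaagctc
Ube2c: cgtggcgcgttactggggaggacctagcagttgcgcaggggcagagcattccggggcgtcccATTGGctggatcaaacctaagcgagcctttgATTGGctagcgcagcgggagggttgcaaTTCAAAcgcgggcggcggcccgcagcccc
Ect2: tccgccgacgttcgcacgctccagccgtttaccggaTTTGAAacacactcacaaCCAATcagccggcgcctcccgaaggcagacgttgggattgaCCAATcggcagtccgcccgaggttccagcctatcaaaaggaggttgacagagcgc

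In Top2a and Ube2c the TTCAAA string lies 23 and 29 bases before the start with CCAAT boxes upstream of it. In Ect2 TTTGAA lies 114 bases before this start, upstream of its CCAAT boxes.

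Among fatty acid genes the same reading found little. The DR1 element (AGGTCA repeated in the same direction after any 1 base, both strands), bound by PPAR receptors, was in none of 27 windows and in 0.0481% of all genes, and TCAAGGTCA, bound by estrogen-related receptors, in none of 27 and in 0.466%. No match says only that these letters are absent from these windows.

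Genes of the G1 and S phases were lower by less. Of 18 tested genes, 1 was called, Ccnd3 (152, 160, 69.6 and 75.3 CPM), a D-type cyclin whose call was lost without mt- genes, and 12 lay below both libraries in both wells, with a median of -1.01. Well 1 alone was 2-fold below for 17 genes and well 2 alone for 1. Among 10 tested cell cycle inhibitors, Cdkn1c, the imprinted inhibitor p57, was called lower at 81.1, 85.7, 20 and 11.8 CPM after 770 and 734 CPM at E12.5. It stood at 178 and 218 CPM in E16.5 barcodes of at most 100 UMIs, above its cardiomyocyte level.

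**Figure D5:**
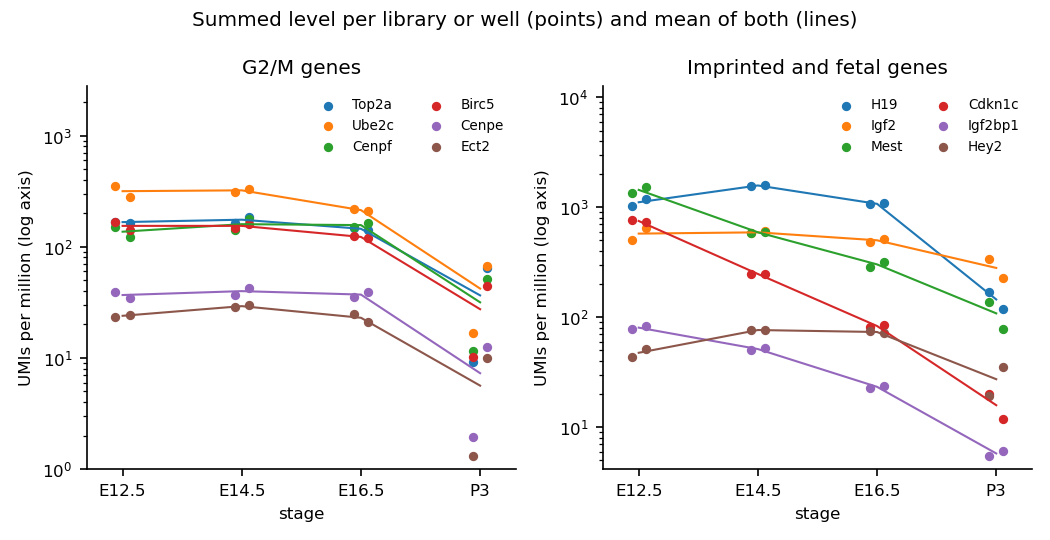
Level of G2/M genes (left) and of imprinted and fetal genes (right) by stage, in CPM on a log axis, where points are libraries at E12.5, E14.5 and E16.5 or wells at P3 and lines join the mean of both. The G2/M genes are lower in both wells than at E16.5, with well 1 (left point) below well 2, while the fetal genes differ less between wells.

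Cdkn1c was 1 of 3 imprinted genes called lower of 17 tested, and 11 of the 17 lay below both libraries in both wells. H19, a maternally expressed non-coding RNA, stood at 1068, 1086, 171 and 120 CPM, and Mest, a paternally expressed gene, at 286, 320, 139 and 78.5 CPM. H19 stood at 1282 and 1364 CPM in E16.5 barcodes of at most 100 UMIs, and the part of free RNA in these differences was not tested. Mest was not called without mt- genes. Igf2, the fetal growth factor that neighbours H19, was lower in both wells but was not called, at 486, 518, 336 and 227 CPM. Igf2bp1, which binds fetal messenger RNAs, was called lower at 22.9, 23.8, 5.54 and 6.04 CPM. It was the only gene called of 17 tested in the fetal growth list, beside 1.99% called lower over all tested genes.

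Ribosomal protein genes were lower almost throughout. Of 85 tested, 82 lay below both libraries in both wells and 2 above, with a median of -0.88, or -0.71 without mt- genes. Their summed level was 192763, 187752, 112692 and 95221 CPM, after 220472 to 245572 CPM at E12.5 and E14.5. Rps26 and Rpl23a were called lower, neither without mt- genes, and Rpl3l and Rpl6l higher. Over all tested genes 1.99% were called lower and 2.30% higher. Well 2 alone was at least 2-fold below both libraries for 41 ribosomal protein genes and well 1 alone for 5. Rpl3l, the muscle form of Rpl3, stood at 2.48, 3.05, 8.74 and 8.57 CPM. Rpl6l stood at 1.31, 1.97, 6.15 and 14.2 CPM, and its reads, like those of Rps26 and Rpl23a, may be split with near-identical copies, so these 3 are uncertain.

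Of 22 tested cardiac transcription regulators, Hopx was called higher and Hey2 lower, beside 2.30% and 1.99% of all tested genes. Hopx, a homeodomain-only cofactor, stood at 207, 209, 546 and 489 CPM. Hey2, the Notch-related repressor of compact ventricular muscle, stood at 75, 72.2, 19.2 and 35.6 CPM and was not called among ventricular barcodes or without mt- genes. In oxidant defence, catalase (Cat) stood at 31.4, 31.4, 78.8 and 107 CPM and Txnip, which binds thioredoxin and curbs glucose uptake, at 94.1, 93.9, 343 and 274 CPM, and these were the genes called higher of 20 tested.

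Among 26 tested immediate early and heat shock genes 1 was called higher, beside 2.30% of all tested genes. This was Klf4, a transcription factor, at 10.4, 10.8, 33.4 and 45.6 CPM. Well 2 alone was 2-fold above both libraries for 6 genes of this list, and the median difference between wells was 0.82 towards well 2, so this list moved with the well. Of 6 tested antigen presentation and interferon genes, H2-D1 (2.49, 2.46, 6.88 and 10.6 CPM) and Ifitm3 (7.04, 6.95, 19.5 and 24.3 CPM) were called higher. In E16.5 barcodes of at most 100 UMIs Ifitm3 stood at 63.2 and 61.9 CPM, H2-D1 at 10.8 and 8.84 CPM and Klf4 at 16.7 and 18.8 CPM, each above its E16.5 level in cardiomyocytes. Of the nuclear-retained RNAs, Neat1 was called higher (4.91, 3.98, 20.8 and 51.3 CPM, and 6.76 and 5.74 CPM in those low-count barcodes) and Kcnq1ot1 lower (88.7, 109, 13.4 and 27.7 CPM).

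The chamber make-up of the barcodes differed between stages. Barcodes with at least as many Myl7 as Myl2 UMIs made up 8.61% and 8.92% at E16.5 and 15.8% and 19.5% at P3. The comparison was therefore repeated on barcodes with more Myl2 than Myl7, of which there were 3207, 3085, 3538 and 2364. There 184 of 8500 genes were called higher (2.16%) and 207 lower (2.44%), and these included 163 of the 198 genes called higher and 159 of the 172 called lower over all barcodes. Neither Myl2 nor Myl7 can be read as a result in that repeat, since they chose the barcodes.

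Calls of several atrial genes depended on this choice. Over all barcodes 5 of 8 atrial markers were called higher, namely Nppa, Sln, Bmp10, Stard10 and Kcnj3, and over the ventricular barcodes Sln alone of these 5 kept its call. Nppa, atrial natriuretic peptide, stood at 1546, 1578, 7851 and 5878 CPM over all barcodes and at 639, 668, 2480 and 489 CPM in ventricular barcodes. In barcodes with at least as much Myl7 it stood at 11897, 11366, 38119 and 25690 CPM, so its P3 level was higher within that class in both wells. Sln stood at 341, 358, 1052 and 1148 CPM over all barcodes and at 17.4, 10.4, 42.2 and 37.3 CPM in ventricular ones. In E16.5 barcodes of at most 100 UMIs Sln stood at 311 and 380 CPM. The part of free RNA in its ventricular level, and so in its kept call, was not tested. Within the class with at least as much Myl7 it stood at 4038, 4095, 6744 and 5233 CPM, where no pair of a well and a library was 2-fold apart.

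Bmp10, an atrial growth factor of the heart after birth, changed direction between the classes. It stood at 24.6, 27.6, 60.4 and 179 CPM over all barcodes and at 15.2, 18.4, 5.76 and 9.61 CPM in ventricular ones, against 132, 127, 368 and 802 CPM with at least as much Myl7. Stard10 stood at 25.4, 29.4, 89.7 and 106 CPM, Kcnj3, a channel of the atrial acetylcholine response, at 13.1, 13.3, 37.7 and 67.5 CPM, and Mybphl at 16.4, 18.3, 67.3 and 84.1 CPM. Each of these was most abundant in barcodes with at least as much Myl7, at both stages, and none kept its call in ventricular barcodes, where Mybphl stood at 1.0, 0.533, 2.5 and 2.65 CPM.

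Myl4, the embryonic and atrial essential light chain, overlapped between the stages over all barcodes, at 2549, 2567, 2131 and 2677 CPM. In ventricular barcodes it stood at 1732, 1726, 229 and 129 CPM, a difference of -3.33. With at least as much Myl7 it stood at 11873, 11611, 12847 and 12043 CPM. In E16.5 barcodes of at most 100 UMIs Myl4 stood at 2307 and 2558 CPM, above its E16.5 level in ventricular barcodes. The part of free RNA in its ventricular difference was not tested. The ventricular partner of Myl4, Myl3, stood at 8068, 7782, 8502 and 8199 CPM and Myl2 at 17012, 16466, 15153 and 11991 CPM. Nppb, brain natriuretic peptide, stood at 125, 127, 625 and 314 CPM over all barcodes and at 101, 109, 651 and 316 CPM in ventricular ones, where it was also called higher. In barcodes with at least as much Myl7 it stood at 390, 326, 479 and 309 CPM, with well 2 below both libraries.

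The study removed barcodes above 15% mt- UMIs at E16.5 and above 20% at P3. Those ceilings would keep 83.4% and 80.7% of the E16.5 cardiomyocyte barcodes and 36.4% and 39.2% of those at P3. At P3 the ceiling falls unevenly on the chambers. Barcodes with at least as much Myl7 as Myl2 made up 40.9% and 47.6% of those at or below it and 1.39% and 1.45% of those above. The median mt- share was 23.1% and 23.2% in ventricular barcodes of the wells and 14.3% and 13.8% in the rest.

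Under these ceilings 367 genes were called higher and 111 lower, Nppa differed by 3.22 in place of 2.12 and the fatty acid list had a median of 1.26 with 16 called higher. The G2/M list had a median of -1.89 with 4 called lower, and 5 fibroblast markers were called higher. In the P3 wells Myh6 stood at 5698 and 5096 CPM at or below 20% mt- UMIs and at 5708 and 5122 CPM above. Plin5 stood at 20 and 15.8 CPM at or below and at 33.6 and 32.6 CPM above, and Pdk4 at 97.7 and 54.8 CPM against 191 and 76.9 CPM. H19 had the opposite order, at 275 and 194 CPM at or below and 107 and 61.5 CPM above.

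The rule's floor of 1% mt- UMIs removed 335 and 238 barcodes that passed the Tnnt2 limit at E16.5 (8.71% and 6.57%) and 28 and 3 at P3 (0.662% and 0.102%). Without this floor 204 genes were called higher and 170 lower.

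Outside the lists, the 12 genes with the largest smallest-pair difference upwards were led by Scd4, a stearoyl-CoA desaturase that makes monounsaturated fatty acids, at 2.78, 2.34, 45.6 and 62.3 CPM. Paqr9 stood at 2.30, 2.07, 30.1 and 72.3 CPM and Ctgf, a matricellular protein that cardiomyocytes make under load, at 12.4, 11.6, 255 and 106 CPM. Mhrt, the non-coding RNA transcribed from the Myh7 locus on the opposite strand, stood at 6.30, 7.60, 73.4 and 63.7 CPM. Ucp2, an uncoupling protein family carrier, stood at 15.1, 14.9, 126 and 120 CPM, above E12.5 (69.6 and 76.8 CPM) as well as E16.5, and at 24.7 and 25.2 CPM in E16.5 barcodes of at most 100 UMIs. Trabd2b, a metalloprotease of the Wnt pathway, stood at 6.96, 6.93, 56.8 and 37.5 CPM.

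Dkk3, a secreted glycoprotein, stood at 15, 16.2, 87.2 and 84.5 CPM and was not called in ventricular barcodes. Eln, which encodes elastin (8.55, 11.7, 59.7 and 147 CPM), and Igfbp7, an IGF-binding protein (7.11, 6.26, 36.8 and 64.0 CPM), are genes of stromal and vascular cells. At E16.5 they stood at 28.2 and 28.5 CPM and at 57.1 and 47.9 CPM in barcodes of at most 100 UMIs, above their cardiomyocyte levels. The last 3 are named as copies of other genes or as gene models. Fabp3-ps1 stood at 5.17, 4.12, 72.4 and 201 CPM beside Fabp3 at 1907, 1894, 6569 and 5750 CPM, Gm10250 at 2.39, 3.31, 25.6 and 116 CPM and Gm10076 at 39.9, 23.3, 210 and 443 CPM. Each was higher in well 2 than in well 1, and reads shared with near-identical genes make them uncertain.

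The 12 genes downwards were led by Gtsf1, a partner of small RNA pathways, at 74.2, 72.0, 10.9 and 7.94 CPM. Cnn1, calponin 1, which is known from smooth muscle and fetal heart, stood at 66.2, 66.7, 13.1 and 12 CPM, after 285 and 285 CPM at E12.5. Gpc3, a glypican that restrains growth, stood at 64.7, 74.9, 13.4 and 8.22 CPM, and at 76.8 and 75.8 CPM in E16.5 barcodes of at most 100 UMIs. The wells lay close together for most of these genes, unlike the mitotic genes.

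Fam162a, a hypoxia-induced mitochondrial protein, stood at 890, 874, 288 and 265 CPM, and Cited1, a transcriptional co-activator, at 279, 289, 93.5 and 77.4 CPM. Sox11, a transcription factor of embryonic tissues, stood at 34.7, 34.5, 7.42 and 11.8 CPM, and Taf10, a subunit of general transcription complexes, at 160, 169, 57.3 and 57.6 CPM. Comtd1, Ppp1r1b, Bex4, 2700094K13Rik and Dcp1b, an mRNA decapping factor, complete the 12, with differences from -2.44 to -1.56. All 12 were also called lower in ventricular barcodes.

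Markers of other cell types were measured in the same sums. The 4 tested globin genes were called lower, with a summed erythroid marker level of 4495 and 6358 CPM at E16.5 and 759 and 1482 CPM at P3. At E16.5 Hbb-bs stood at 1863 and 2519 CPM in cardiomyocyte barcodes and at 28504 and 22115 CPM in barcodes of at most 100 UMIs. Fibroblast markers summed to 148, 109, 176 and 417 CPM, highest in well 2, and 4 of 6 tested lay above both libraries in both wells, Col3a1 with 35.3, 23.9, 49.1 and 141 CPM among them.

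Endothelial markers summed to 48.3, 62.6, 164 and 144 CPM, most of it at P3 from Fabp4 (17.1, 21.8, 128 and 97.0 CPM), the marker of this list called higher, while Pecam1 and Tie1 were under 7 CPM throughout. In E16.5 barcodes of at most 100 UMIs Fabp4 stood at 227 and 252 CPM. Rgs5, a pericyte gene, was called higher (2.56, 3.94, 9.30 and 31.0 CPM), while the mural markers summed to 25.3, 29.4, 26.0 and 62.2 CPM. Macrophage markers summed to 14 to 28.1 CPM, epicardial markers to 2.91 to 11.7 CPM and Schwann cell and neuron markers to 2.84 to 5.81 CPM. No marker in these lists was at 0 in all 4 profiles. The part of such RNA in the values above was not tested.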

How the data were processed

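Count matrices were deposited by the authors as UMI counts per gene and barcode, not normalised. Per the labels they were made with Cell Ranger 2.1.1 and Seurat 3.1.1 on mm10, whereas the matrix headers name Cell Ranger 3.1.0 for E16.5 and 3.0.0 for P3. The labels name trypsin and v2 chemistry, the study's methods collagenase II and v3. E16.5 matrices list 737280 barcodes each, and the P3 matrix 6320 and 4644 by suffix.

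Members were chosen by the stated rule, UMIs summed per library or well, and scaled to CPM over all UMIs (pseudocount 0.5, mean of at least 5 CPM). Members, lists and rule were chosen with earlier results of these data known. Named are, per list, up to 8 called genes of largest difference and isoform pairs, and outside the lists 12 genes each way with a mean of at least 20 CPM, without globin, sex-linked and mt- genes. Fabp3 was named beside its copy, and Actn2, Tnnc1, Pecam1, Tie1 and Col3a1 as markers, after their values were seen. Some genes are not reported here. The chamber classes compare Myl2 and Myl7 UMIs.

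Alternatives used edgeR 4.0.16 (quasi-likelihood), DESeq2 1.42.0, scanpy 1.11.5 (Scrublet), R 4.3.3 and Python 3.11.15. Doublets stayed in the main comparison. The call rule and the fits were tested on simulated data. The simulation gave every profile the same spread, so it does not show how they act under the larger spread of the P3 wells.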

Additional observations from a re-analysis of the deposited data

How the results depend on the processing

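Counts of genes called higher and lower at P3 (198 and 172) stayed within 1.5 times under TMM, DESeq2 size factors, the mean of barcode CPM, a 30% mitochondrial ceiling, no mt- floor, Tnnt2 at 3000 CPM, 5000 UMIs, doublet scores left out, Myl2 above Myl7 and thinning to 2000 UMIs. They moved to 307 and 111 without mt- genes, 557 and 619 at 1.5-fold, 2735 and 2790 with no fold, 332 and 281 with no gene filter, 127 and 101 at a mean of 20 CPM, 131 and 98 with a pseudocount of 5, and 367 and 111 under the study's mitochondrial ceilings. The causes were not tested, other than that the fold and gene filters set the number of genes eligible. Leaving out a library or well in turn gave 230 to 477 higher and 185 to 780 lower, with 477 and 272 without P3 well 1 and 265 and 780 without P3 well 2. Model fits at an adjusted p of at most 0.05 and 2-fold, with both wells on 1 side, called 1267 and 1306 (edgeR, P3 as 1 sample with the spread of 6 embryonic libraries), 457 and 328 (edgeR, wells as replicates, which they are not shown to be) and 787 and 659 (DESeq2, likewise). The difference in mt- share was 11.6 points with no mt- floor and 12.2 for Myl2 above Myl7, and 11.1 to 11.5 leaving out each library or well, a check added after the data were seen. Of 112 named genes with a call, Bmp10 alone changed sign under an alternative, to -1.11 among Myl2 above Myl7 barcodes. Scrublet's own threshold marked 0 to 6 barcodes per profile, so the highest scores at the expected rate were left out instead. No paired analysis was possible because the labels tie no replicate number to a P3 well.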
